A study of Mus musculus with 42 samples.

Results

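Bone marrow-derived macrophages of the mouse were compared after 8 h with vehicle and before any treatment, in 12 of the 42 RNA sequencing libraries of the study. The libraries were chosen by their titles. The 6 vehicle libraries (3 WT, 3 KO) carry the 8 h label, the 6 untreated libraries (3 WT, 3 KO) carry the 0 h baseline label, and the change was averaged over the genotypes for all 11160 genes of the deposited table. WT cells are wild type. KO cells carry a knockout of MS4A4A, a tetraspanning membrane protein of macrophages. The sources used here do not give the removed part of the gene or the strain and age of the mice. All cells had been grown from bone marrow for 6 days with 50 ng/ml recombinant M-CSF, the macrophage growth factor, in IMDM with 10% serum. They were then lifted with Accutase, put into 12-well plates and used on the following day. None of the 12 libraries had dexamethasone, the steroid that the study tests at 2, 8 and 24 h. What the vehicle was, and whether medium was changed when it was added, is not stated there either. Because all untreated libraries carry the 0 h label, the vehicle, its handling and 8 h of further culture cannot be told apart. The labels do not say if replicates are separate cultures or mice, so the tests here weigh a change against a spread between samples that may be technical.

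Type I interferons act through a receptor on the same or neighbouring cells and through factors, STAT2 and IRF9 among them, which bind the interferon-stimulated response element (ISRE) in the promoters of antiviral genes. Cultured macrophages keep part of this programme on without infection. NRF2 is a stress-responsive factor held down by Keap1, and it turns on genes of glutathione synthesis and haem breakdown through the antioxidant response element. The TGF-beta family signals through Smad proteins and turns on its own inhibitors, among them Smad6, Smad7 and Skil.

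By their markers the libraries held macrophages. All 35 genes of a macrophage identity list were measured, and their summed level was 39080 to 44750 CPM (counts scaled to the size of each library) in the untreated and 38750 to 44480 CPM in the vehicle libraries. Neutrophil markers (8 of 14 measured) summed to 252 to 362.6 CPM in untreated and 223.2 to 348.9 CPM in vehicle libraries. Erythroid and megakaryocyte markers (3 of 14) summed to 240 to 333.8 and 225.7 to 323.5 CPM. Endothelial and epithelial markers (3 of 11) summed to 58.8 to 84.9 and 68.8 to 88.9 CPM. The sums of lymphocyte, mast cell and stromal markers were at most 29.9 CPM in any of these libraries. Csf1r, the M-CSF receptor, was at 1360 to 1723 CPM (median 1454) in the untreated and 1536 to 1934 CPM (median 1728) in the vehicle libraries. Its difference did not pass the test (log2 fold change 0.20 ± 0.10). In all such values ± gives the SE of a fitted change between 6 and 6 libraries, with the spread estimated from all 42 libraries. A change given as a bare number below is a log2 fold change. Adgre1, which encodes F4/80, was at 1770 to 2128 CPM (median 1899) in the untreated and 1622 to 2024 CPM (median 1757) in the vehicle libraries and did not pass either. The 12 libraries held 10140211 to 30974555 estimated counts (median 26099403.5), and the shallow one was WT untreated replicate 3. Mitochondrial transcripts made up 0.553 to 0.779% of counts in untreated and 0.684 to 0.827% in vehicle libraries. Libraries that stood apart are named beside the genes they touch. Both untreated libraries numbered 1 were low in several genes that rose, and KO vehicle replicate 3 was the highest of its group in interferon-stimulated genes.

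After 8 h with vehicle, 948 genes rose and 1078 fell (8.49% and 9.66% of the 11160 genes, 18.2% together, at an adjusted p under 0.05 by edgeR's quasi-likelihood test with Benjamini-Hochberg adjustment, which defines a call throughout). The median log2 fold change over all genes was -0.0035. Most calls were small, with a median size of 0.34 on the log2 scale. Large changes leaned downward, with 151 called genes over 2-fold lower (1.35% of genes) and 37 over 2-fold higher (0.332%). Of the 151, 55 belonged to lists of antiviral interferon-stimulated genes and interferon-inducible GTPases, 17 to other lists only, and 79 to none of the 56 lists. Among the 37, 8 belonged to any list. In 927 called genes (8.31% of all genes) the 6 vehicle and the 6 untreated libraries did not overlap, and with uncalled genes the share was 8.64%. The total was 1335 in place of 2026 without both untreated libraries numbered 1, and the number over 2-fold higher was then 24.

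**Figure D1:**
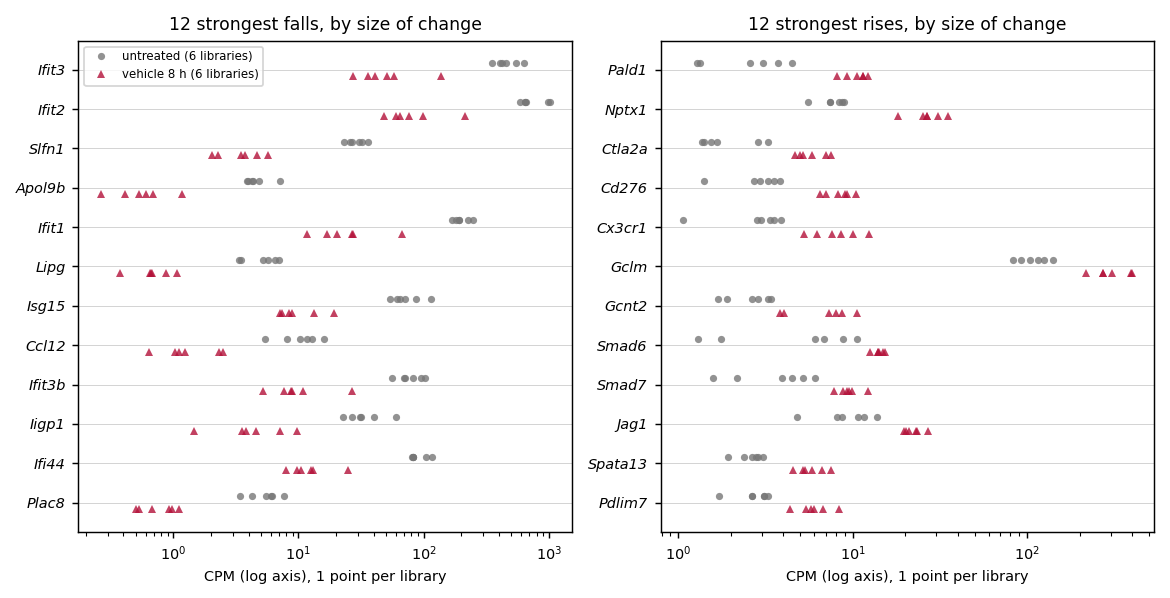
CPM on a log axis for the 12 called genes with the largest fall (left) and the 12 with the largest rise (right) among genes reaching 5 CPM with no overlap between groups, 1 point per library, grey circles for the 6 untreated and red triangles for the 6 vehicle 8 h libraries. Ifit3 goes from 354 to 636 CPM down to 27.2 to 138 CPM, and Gclm goes from 83.1 to 140 CPM up to 216 to 397 CPM.

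The interferon-stimulated genes fell together. All 44 measured members of the antiviral list were called lower, against 9.66% of all genes, with a median log2 fold change of -1.60 beside -0.0035 for all genes. The groups did not overlap in 43 of the 44, and 39 were over 2-fold lower. Their mean level per library was 7.18 to 7.59 on the log2 CPM scale in untreated and 5.12 to 6.19 in vehicle libraries, where KO replicate 3 was the highest and KO replicate 2 the lowest. All 44 were called with each of the 12 libraries left out in turn.

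Ifit3, an antiviral RNA-binding protein of the IFIT family, had the largest fall by the naming rule. That rule takes the largest changes only from called genes whose groups did not overlap. For genes picked in this way the lack of overlap is no further finding. The gene, protein-coding, spans 34583531 to 34588731 of chromosome 19 (plus strand, GRCm38, GENCODE release 21, as for all gene positions here). Its level was 354 to 636 CPM (median 440.3) in the untreated and 27.2 to 138 CPM (median 46.0) in the vehicle libraries. The groups were far apart, and the highest vehicle library was KO replicate 3. The fall was 8.32-fold (log2 fold change -3.06 ± 0.26, SE, edgeR Benjamini-Hochberg adjusted p = 3.64e-11). Its near copy Ifit3b fell by a like amount (-2.85 ± 0.22). Reads may be split between both, and their summed level was 410.5 to 738.7 CPM in untreated and 32.4 to 165.2 CPM in vehicle libraries. The neighbouring Ifit2, from 34550694 to 34576419, was at 584 to 1021 CPM (median 649.7) in the untreated and 48.2 to 215 CPM (median 70.5) in the vehicle libraries. Ifit1, which binds viral RNA ends, was at 167 to 246 CPM (median 191) in the untreated and 11.8 to 67.3 CPM (median 23.7) in the vehicle libraries. Both genes were picked by the same rule. Isg15, a ubiquitin-like modifier joined to proteins during viral infection (chromosome 4, 156199424 to 156200818, minus strand), was at 53.8 to 115 CPM (median 67.5) in the untreated and 7.09 to 19.3 CPM (median 8.66) in the vehicle libraries. This was a 7.22-fold fall (log2 fold change -2.85 ± 0.20, SE, edgeR Benjamini-Hochberg adjusted p = 5.35e-13). Zbp1, a sensor of Z-form nucleic acid, had the lowest p of the list. Its level was 92.7 to 138 CPM (median 108) in the untreated and 18.2 to 31.3 CPM (median 20.0) in the vehicle libraries, a 5.01-fold fall (log2 fold change -2.33 ± 0.11, SE, edgeR Benjamini-Hochberg adjusted p = 1.63e-16). Ifi44 stood at 81.5 to 117 CPM (median 82.9) in the untreated and 7.96 to 24.7 CPM (median 11.5) in the vehicle libraries. The oligoadenylate synthetases Oas1a and Oas1g, close copies that make the activator of RNase L, had log2 fold changes of -1.55 and -1.75. Oas1a was at 241 to 315 CPM (median 263) in the untreated and 80.8 to 117 CPM (median 86.8) in the vehicle libraries, with no overlap.

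Irf7, the factor that amplifies interferon production, was at 685 to 1118 CPM (median 763) in the untreated and 295 to 509 CPM (median 338) in the vehicle libraries and fell 2.20-fold. Outside the interferon lists, a fall of like size was seen in Slfn1, a Schlafen family gene of chromosome 11 (83116849 to 83122670, plus strand), which was at 23.1 to 36.2 CPM (median 28.5) in the untreated and 2.04 to 5.76 CPM (median 3.60) in the vehicle libraries. Its fall was 8.05-fold (log2 fold change -3.01 ± 0.22, SE, edgeR Benjamini-Hochberg adjusted p = 1.11e-12). Apol9b, of the apolipoprotein L family, went from 3.91 to 7.07 CPM (median 4.31) to 0.264 to 1.17 CPM (median 0.567). Lipg, endothelial lipase, went from 3.38 to 6.99 CPM (median 5.47) to 0.377 to 1.07 CPM (median 0.672). Plac8 went from 3.43 to 7.71 CPM (median 5.79) to 0.502 to 1.11 CPM (median 0.801). These 3 genes were low in all libraries, and a lack of overlap was a condition of picking them. Ly6a, which encodes the surface protein Sca-1, was at 234 to 397 CPM (median 282) in the untreated and 88.5 to 126 CPM (median 107) in the vehicle libraries.

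The ISRE core was counted in the promoters of the falling genes, as a description of their sequence. It was searched on both strands as GAAA, any 2 bases and GAAA again, in 300 bases (250 before to 50 after the start) of the RefSeq promoter table of GRCm38.p6, in which 9013 of the 11160 genes were found. It was present in 19 of 34 matched antiviral genes (55.9%), in 9 of 10 matched interferon-inducible GTPases (90%) and in 53 of 111 matched genes over 2-fold lower (47.7%). The share was 4.01% over all matched genes and 3.44% over all 32851 promoters of the table. None of the 32 matched genes over 2-fold higher held it. At a share of 4.01% few would be expected among 32 genes, so this count shows no difference from all genes. A match is a description of letters and not a measured site. The 160 bases before the start are shown for 3 antiviral genes and 1 GTPase gene, with the ISRE matches in capitals. They show how close to the start the element lies and how copies overlap. These are the called members with the lowest p whose window holds the motif and is followed by bases found in an annotated transcript. Oas1g, a copy of Oas1a, is left out. The Irgm1 window lies within the annotated gene span (48861968 to 48871683), so the start used there is not the outermost one. In Oas1a matches begin 20 and 14 bases before the start, in Trim30a at 36, in Isg15 at 78, 72 and 66, and in Irgm1 at 30 and 24. Trim30a, an antiviral tripartite motif gene outside the naming rule and shown for its sequence, was at 242 to 315 CPM (median 266) in the untreated and 64.5 to 129.6 CPM (median 86.9) in the vehicle libraries. Sequences are RefSeq, 5′ to 3′ on the gene's strand.
Oas1a, chr5:120907526-120907685, minus strand: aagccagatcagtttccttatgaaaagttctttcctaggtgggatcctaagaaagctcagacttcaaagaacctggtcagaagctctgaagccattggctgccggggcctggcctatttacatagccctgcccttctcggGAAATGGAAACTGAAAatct
Trim30a, chr7:104465194-104465353, minus strand: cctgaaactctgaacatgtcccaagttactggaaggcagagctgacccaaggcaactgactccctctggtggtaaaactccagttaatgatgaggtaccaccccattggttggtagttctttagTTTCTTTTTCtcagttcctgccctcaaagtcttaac
Isg15, chr4:156200819-156200978, minus strand: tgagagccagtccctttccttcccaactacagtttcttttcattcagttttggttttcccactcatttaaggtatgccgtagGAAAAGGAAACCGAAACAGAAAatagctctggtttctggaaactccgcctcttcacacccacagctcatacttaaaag
Irgm1, chr11:48871421-48871580, minus strand: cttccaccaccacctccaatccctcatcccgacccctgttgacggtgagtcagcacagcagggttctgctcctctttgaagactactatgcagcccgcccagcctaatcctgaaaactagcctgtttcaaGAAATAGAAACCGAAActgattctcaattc

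The interferon-inducible GTPases, which act on membranes of vacuoles that hold microbes, fell too. All 16 measured were called lower, each over 2-fold, with a median of -1.89 beside -0.0035 for all genes. Iigp1 was at 22.5 to 60.4 CPM (median 31.2) in the untreated and 1.47 to 9.76 CPM (median 4.21) in the vehicle libraries. Irgm1, a regulator of the family (chromosome 11, 48861968 to 48871683, minus strand), was at 293 to 379.9 CPM (median 319) in the untreated and 86.3 to 157 CPM (median 106) in the vehicle libraries, a 2.92-fold fall (log2 fold change -1.55 ± 0.10, SE, edgeR Benjamini-Hochberg adjusted p = 3.02e-13). Igtp and the guanylate-binding proteins Gbp2, Gbp3 and Gbp6 had log2 fold changes of -1.55, -1.89, -1.57 and -2.17, all with no overlap. The near copies Tgtp1 and Tgtp2 summed to 106.8 to 194.8 CPM in untreated and 11.2 to 35.2 CPM in vehicle libraries. The receptors, kinases and regulators of the pathway moved less. Of 15 interferon receptor and signalling genes 2 fell (13.3%) and 1 rose (6.67%), with a median of -0.0067. These shares are near those of all genes (9.66% and 8.49%). Socs1, a feedback inhibitor of interferon signalling, went from 2.36 to 3.54 CPM (median 3.08) to 0.903 to 1.64 CPM (median 1.06). Irf1 went from 54.7 to 79.4 CPM (median 66.9) to 35.7 to 47.3 CPM (median 43.6) and did not overlap. Ifnar1, a chain of the type I interferon receptor, rose from 113 to 146 CPM (median 126) to 142 to 166 CPM (median 153), and its groups overlapped. Among the factors that bind the ISRE, both named after their values were seen, Stat2 fell from 219.5 to 323 CPM (median 243) to 70.1 to 147 CPM (median 84.6) and Irf9 from 106 to 115 CPM (median 109) to 48.9 to 77.7 CPM (median 61.5).

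**Figure D2:**
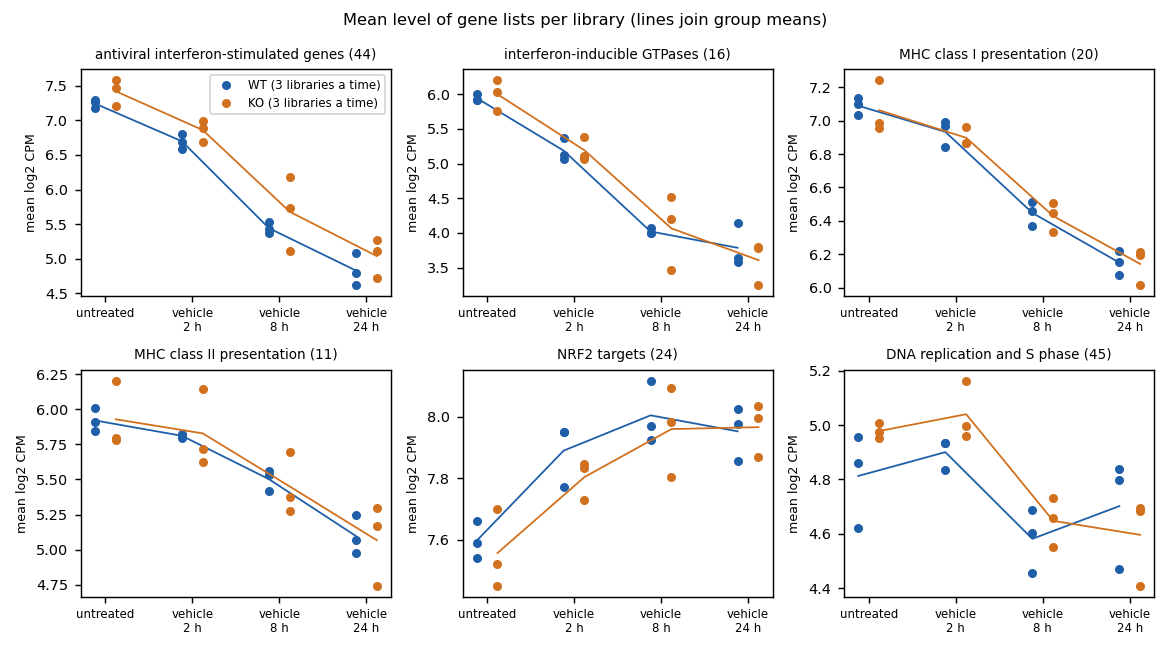
Mean log2 CPM of 6 gene lists in each library (blue WT, orange KO, 3 libraries a time, lines through group means) in untreated cells and after 2, 8 and 24 h of vehicle. The antiviral genes stand at 7.18 to 7.59 in untreated and 5.12 to 6.19 in vehicle 8 h libraries, and the NRF2 targets at 7.45 to 7.70 and 7.80 to 8.12.

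Antigen presentation genes fell in both classes, by smaller amounts. Of 20 MHC class I genes 16 fell and none rose (median -0.62), and of 11 class II genes 8 fell and none rose (median -0.58). The share of all genes that fell was 9.66%. Tap1, which pumps peptides into the endoplasmic reticulum, was at 95.4 to 133 CPM (median 106) in the untreated and 45.9 to 67.8 CPM (median 54.6) in the vehicle libraries. Psmb9, a catalytic subunit of the immunoproteasome, was at 66.1 to 98.6 CPM (median 73.2) in the untreated and 38.4 to 45.8 CPM (median 43.2) in the vehicle libraries. Both had groups that did not overlap. The class Ib genes H2-T22, H2-T23 and H2-T24, whose similar sequences make the split of reads uncertain, had log2 fold changes of -1.13, -0.75 and -2.004, all called. H2-Ab1, the beta chain of the class II molecule I-A, was at 156 to 219 CPM (median 175) in the untreated and 109.5 to 139.7 CPM (median 113) in the vehicle libraries, a 1.53-fold fall (log2 fold change -0.61 ± 0.10, SE, edgeR Benjamini-Hochberg adjusted p = 3.25e-05). H2-Eb1, H2-DMa, which helps load peptides, and the costimulator Cd86 fell with log2 fold changes of -0.73, -0.64 and -0.58. H2-DMb1 fell by 0.36, and its groups overlapped. A list of 12 dendritic cell markers had 5 measured genes, and their sum was 263.9 to 428.7 CPM in untreated and 121 to 166.5 CPM in vehicle libraries. Of that sum Bst2, also an antiviral gene, made up 241 to 411 CPM (median 297) and 98.5 to 148 CPM (median 132). The part of dendritic cells in the fall was not tested, and in bulk libraries fewer cells of a type and less RNA per cell cannot be told apart.

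The Ms4a genes, a cluster on chromosome 19 that holds the knocked-out gene, fell in 6 of 9 measured members, with a median of -0.51. The share of all genes that fell was 9.66%. Ms4a4c (11404770 to 11427246, plus strand) had the largest fall of the list. It was at 176 to 417 CPM (median 222) in the untreated and 41.0 to 81.6 CPM (median 51.1) in the vehicle libraries, a 4.43-fold fall (log2 fold change -2.15 ± 0.20, SE, edgeR Benjamini-Hochberg adjusted p = 2.61e-10). Ms4a4b was at 3.24 to 4.56 CPM (median 3.91) in the untreated and 1.36 to 2.68 CPM (median 1.88) in the vehicle libraries. The similar genes Ms4a6b, Ms4a6c and Ms4a6d fell with log2 fold changes of -0.91, -0.88 and -0.51 and summed to 936.4 to 1208 CPM in untreated and 588.4 to 732.2 CPM in vehicle libraries. Ms4a4a itself was at 81.8 to 93.5 CPM in WT and 44.2 to 49.6 CPM in KO untreated libraries, and at 67.0 to 80.1 CPM and 24.2 to 35.0 CPM after 8 h. The KO libraries were below the WT libraries in both conditions, although the transcript was measured in each of them. Averaged over genotypes it fell by 0.49 ± 0.15 on the log2 scale, a call that was lost without KO vehicle replicate 1 (-0.43, edgeR Benjamini-Hochberg adjusted p = 0.0594) and without both untreated libraries numbered 1 (-0.50, edgeR Benjamini-Hochberg adjusted p = 0.0565).

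Of 18 chemokine genes 8 fell and none rose, with a median of -0.53, and the count was 5 among genes with a mean of at least 5 CPM. Ccl12, a monocyte attractant, fell most and was at 5.42 to 16.1 CPM (median 11) in the untreated and 0.639 to 2.48 CPM (median 1.17) in the vehicle libraries. Ccl2, the main ligand of CCR2, was at 169 to 299 CPM (median 233) in the untreated and 57.0 to 152 CPM (median 86.5) in the vehicle libraries. The fall of Ccl2 was 2.36-fold, with no overlap although the vehicle libraries spread widely (log2 fold change -1.24 ± 0.30, SE, edgeR Benjamini-Hochberg adjusted p = 0.00307). Ccl3 went from 95.1 to 157 CPM (median 115) to 57.6 to 91.4 CPM (median 64.5) and Ccl4 from 168 to 292 CPM (median 223) to 84.0 to 157 CPM (median 119). Cxcl10, an interferon-induced attractant of T cells, went from 3.47 to 10.04 CPM (median 4.52) to 0.830 to 2.73 CPM (median 1.68). Of 27 pattern receptor genes and adaptors 11 fell (40.7%) and 4 rose (14.8%), where 9.66% of all genes fell and 8.49% rose. Tlr7, a receptor for single-stranded RNA, was at 169 to 212 CPM (median 187) in the untreated and 114 to 143 CPM (median 131) in the vehicle libraries, and its adaptor Myd88 was at 105 to 144 CPM (median 117) in the untreated and 86.7 to 104 CPM (median 96.6) in the vehicle libraries. Both fell with no overlap. Tlr3, a sensor of double-stranded RNA, and the lectin Clec10a fell with log2 fold changes of -0.42 and -0.95. The kinase Irak2 rose from 48.1 to 65.7 CPM (median 52.6) to 66.6 to 92.4 CPM (median 80.7).

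Of 35 macrophage identity genes 9 fell (25.7%) and 4 rose (11.4%), with a median of -0.11. Over all genes 9.66% fell and 8.49% rose. Fcgr1, the high-affinity IgG receptor, had the largest fall of the list and was at 204 to 330.0 CPM (median 223) in the untreated and 72.2 to 108 CPM (median 87.6) in the vehicle libraries, a 2.68-fold fall (log2 fold change -1.42 ± 0.11, SE, edgeR Benjamini-Hochberg adjusted p = 2.2e-12). Aif1, a calcium-binding protein of macrophages, was at 113 to 219.6 CPM (median 117) in the untreated and 49.5 to 97.0 CPM (median 66.5) in the vehicle libraries. Siglec1, the sialic acid receptor CD169, and the receptor kinase Axl fell with log2 fold changes of -0.67 and -0.59. The transcription factor Cebpa rose from 37.9 to 58.9 CPM (median 51.8) to 71.2 to 99.6 CPM (median 76.4). Cx3cr1, the fractalkine receptor, rose from 1.06 to 3.86 CPM (median 3.16) to 5.27 to 12.3 CPM (median 8.04), at a low level (log2 fold change 1.52 ± 0.33, SE, edgeR Benjamini-Hochberg adjusted p = 0.00096). The log2 fold change of Cd68 was -0.15 ± 0.05, a call that was lost without KO untreated replicate 1, WT untreated replicate 3 or the third vehicle library of either genotype (-0.10 to -0.14, edgeR Benjamini-Hochberg adjusted p 0.0591 to 0.126). Itgam, Spi1 and Lyz2 differed by 0.06, -0.02 and 0.12 and did not pass.

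**Figure D3:**
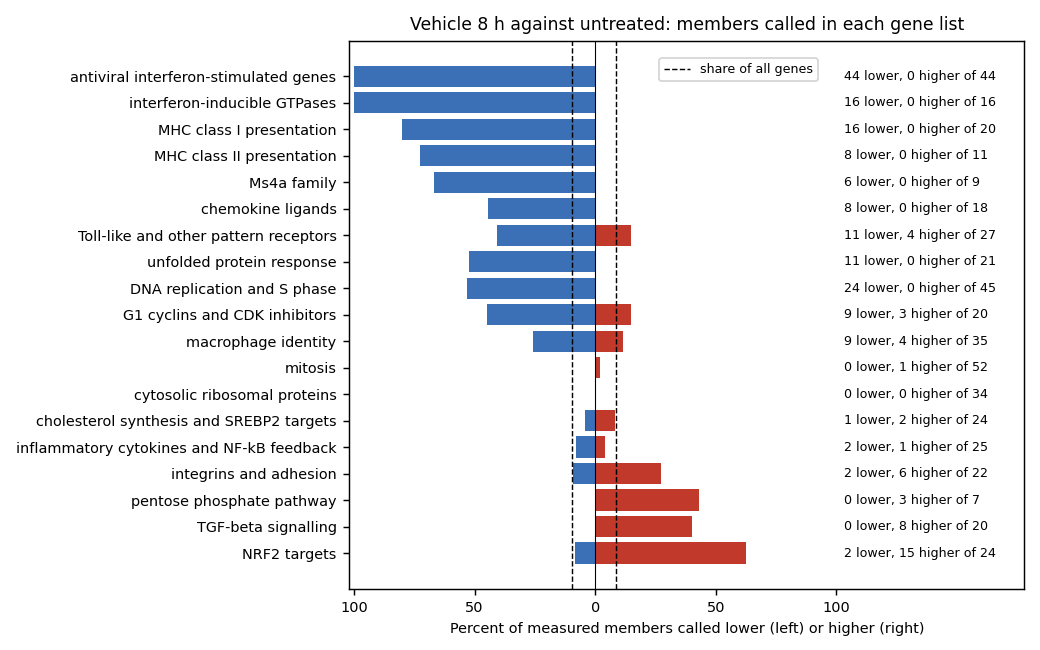
Percent of the measured members of 19 gene lists called lower (blue, left) or higher (red, right) after 8 h of vehicle, with counts at the right and dashed lines at the shares of all genes (9.66% lower, 8.49% higher). All members of both interferon lists were lower, and 15 of 24 NRF2 targets were higher.

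Among rising groups the NRF2 targets had the largest share of members called. Of 24 measured genes 15 rose, against 8.49% of all genes, 2 (Keap1 and Nfe2l2, the gene of NRF2) fell, and the median was 0.38. Their mean level was 7.45 to 7.70 on the log2 CPM scale in untreated and 7.80 to 8.12 in vehicle libraries, without overlap. Gclm, the modifier subunit of the enzyme that limits glutathione synthesis (chromosome 3, 122245557 to 122270732, plus strand), was at 83.1 to 139.7 CPM (median 109) in the untreated and 216 to 397 CPM (median 289) in the vehicle libraries. This was a 2.82-fold rise (log2 fold change 1.498 ± 0.18, SE, edgeR Benjamini-Hochberg adjusted p = 6.6e-08). Gclc, the catalytic subunit, was at 28.2 to 50.7 CPM (median 45.6) in the untreated and 68.2 to 99.0 CPM (median 80.8) in the vehicle libraries, a 1.91-fold rise (log2 fold change 0.94 ± 0.11, SE, edgeR Benjamini-Hochberg adjusted p = 3.52e-08). Hmox1, which breaks down haem (chromosome 8, 75093621 to 75100589, plus strand), was at 296 to 373 CPM (median 353) in the untreated and 558 to 855 CPM (median 714) in the vehicle libraries, a 2.06-fold rise (log2 fold change 1.04 ± 0.13, SE, edgeR Benjamini-Hochberg adjusted p = 9.5e-08). Gclc and Hmox1 did not overlap between groups, and for Gclm this was a condition of its place among the 12 largest rises. Srxn1, which repairs peroxiredoxins, rose from 128 to 174 CPM (median 159) to 211 to 318 CPM (median 253). Slc7a11, the cystine importer, rose from 3.71 to 16.3 CPM (median 9.17) to 15.1 to 31.5 CPM (median 22.3), with both untreated libraries numbered 2 above the lowest vehicle library. Keap1, the inhibitor of NRF2, fell from 52.9 to 60.6 CPM (median 54.9) to 39.3 to 45.3 CPM (median 42.6), with no overlap. The ferritin genes Fth1 and Ftl1 and the glutathione peroxidases Gpx1 and Gpx4, named after their values were seen, differed by -0.02, 0.04, -0.12 and -0.03 and did not pass.

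The antioxidant element was searched as TGACNNNGC on both strands in the same promoters. It was present in 8 of 20 matched NRF2 targets (40%) and in 11 of 32 matched genes over 2-fold higher (34.4%), beside 17.2% of all matched genes and 12.4% of all promoters of the table. It was also in 5 of 12 matched TGF-beta genes (41.7%) and in 6 of 18 matched unfolded protein response genes (33.3%), a group in which 11 of 21 fell and none rose. The 160 bases before the start are shown for Gclm and Txnrd1, the targets with the lowest p whose window holds the motif, with the match in capitals, to show where the letters lie. The matches begin 134 and 92 bases before the start and lie on the opposite strand. Txnrd1, thioredoxin reductase, is outside the naming rule and was at 138 to 207 CPM (median 178.3) in the untreated and 233 to 330.2 CPM (median 288) in the vehicle libraries.
Gclm, chr3:122245397-122245556, plus strand: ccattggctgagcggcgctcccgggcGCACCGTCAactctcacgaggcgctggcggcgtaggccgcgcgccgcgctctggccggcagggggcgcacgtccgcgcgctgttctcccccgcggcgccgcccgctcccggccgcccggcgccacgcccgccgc
Txnrd1, chr10:82859046-82859205, plus strand: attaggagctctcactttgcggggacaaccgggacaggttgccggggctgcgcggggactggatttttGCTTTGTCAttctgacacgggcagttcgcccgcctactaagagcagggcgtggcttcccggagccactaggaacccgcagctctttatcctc

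Some genes that supply NADPH or handle iron were called in the same samples, where 8.49% of all genes rose and 9.66% fell. Of 7 pentose phosphate genes 3 rose and none fell, with a median of 0.07. Pgd, phosphogluconate dehydrogenase, was at 255 to 322 CPM (median 291) in the untreated and 367 to 525 CPM (median 436) in the vehicle libraries, a 1.55-fold rise (log2 fold change 0.63 ± 0.09, SE, edgeR Benjamini-Hochberg adjusted p = 3.35e-06). Taldo1 rose from 333 to 419 CPM (median 396) to 438 to 519 CPM (median 497). G6pdx rose by 0.22 with overlap, a call lost without both untreated libraries numbered 1 (log2 fold change of G6pdx 0.19, edgeR Benjamini-Hochberg adjusted p = 0.0595). Me1, another source of NADPH, rose from 7.97 to 9.69 CPM (median 8.83) to 11.8 to 16.8 CPM (median 14.3). Of 21 iron and haem genes 6 rose (28.6%) and 2 fell (9.52%), with a median of 0.04. The haem transporter Slc48a1 was at 286 to 336 CPM (median 309) in the untreated and 359.5 to 439 CPM (median 422) in the vehicle libraries, and Alas1, the first enzyme of haem synthesis, at 89.0 to 105 CPM (median 91.8) in the untreated and 114 to 144 CPM (median 118) in the vehicle libraries. Slc11a1, the metal exporter of phagosomes, rose by 0.35. Ncoa4, which sends ferritin to the lysosome, fell from 641 to 750.1 CPM (median 689) to 498 to 606 CPM (median 529). None of these 4 iron genes overlapped between groups.

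Of 20 TGF-beta pathway genes 8 rose, beside 8.49% of all genes, and none fell, with a median of 0.27. The ligands Tgfb1 and Tgfb3 and the signalling Smad2, Smad3 and Smad4, named after their values were seen, did not pass (-0.18 to 0.11), and the members that rose included the receptor Tgfbr1 and several inhibitors. Tgfbr1 was at 136 to 261 CPM (median 186) in the untreated and 289 to 404 CPM (median 346) in the vehicle libraries, a 1.83-fold rise (log2 fold change 0.87 ± 0.12, SE, edgeR Benjamini-Hochberg adjusted p = 1.25e-06). Smad7, which blocks the receptor, was at 1.58 to 6.07 CPM (median 4.21) in the untreated and 7.83 to 12.3 CPM (median 9.34) in the vehicle libraries, a 2.53-fold rise (log2 fold change 1.34 ± 0.26, SE, edgeR Benjamini-Hochberg adjusted p = 0.000252). Smad6, an inhibitor of BMP signals, was at 1.30 to 10.6 CPM (median 6.42) in the untreated and 12.5 to 15.2 CPM (median 14.1) in the vehicle libraries, and Skil, a repressor of Smad complexes, at 37.9 to 118 CPM (median 80.2) in the untreated and 137 to 179 CPM (median 169.7) in the vehicle libraries. In Smad6 both untreated libraries numbered 1 were at 1.30 and 1.75 CPM and the other 4 at 6.06 to 10.6 CPM. Without both the rises of Smad6, Smad7 and Skil were 0.85, 0.97 and 0.75 in place of 1.35, 1.34 and 1.04, and each stayed called. The pseudoreceptor Bambi and the corepressor Tgif1 rose with log2 fold changes of 0.58 and 0.29. The mean level of the list was 4.11 in both untreated libraries numbered 1, 4.52 to 4.73 in the other untreated libraries and 4.90 to 4.97 in the vehicle libraries.

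Other large rises were in genes of low level. Pald1, which encodes the phosphatase-like protein paladin (chromosome 10, 61319656 to 61383530, minus strand), rose most under the naming rule and was at 1.29 to 4.49 CPM (median 2.80) in the untreated and 8.11 to 12.2 CPM (median 10.98) in the vehicle libraries. This was a 3.92-fold rise (log2 fold change 1.97 ± 0.31, SE, edgeR Benjamini-Hochberg adjusted p = 1.15e-05). Nptx1, a neuronal pentraxin (chromosome 11, 119538719 to 119547753, minus strand), was at 5.54 to 8.89 CPM (median 7.87) in the untreated and 18.2 to 35.3 CPM (median 26.6) in the vehicle libraries. Cd276, the immune checkpoint ligand B7-H3, was at 1.39 to 3.84 CPM (median 3.11) in the untreated and 6.501 to 10.4 CPM (median 8.58) in the vehicle libraries. Jag1, a Notch ligand, was at 4.79 to 13.7 CPM (median 9.70) in the untreated and 19.6 to 27.0 CPM (median 21.99) in the vehicle libraries, with KO untreated replicate 1 the lowest. Ctla2a, a cysteine protease inhibitor, rose from 1.36 to 3.28 CPM (median 1.60) to 4.63 to 7.505 CPM (median 5.50). Gcnt2, a glycosyltransferase, rose from 1.68 to 3.39 CPM (median 2.75) to 3.82 to 10.6 CPM (median 7.64). Spata13 and Pdlim7, which act on the actin skeleton, rose with log2 fold changes of 1.17 and 1.14. Of 22 integrin and adhesion genes 6 rose (27.3%) and 2 fell (9.09%), where 8.49% of all genes rose and 9.66% fell. Itgav, the alpha V chain that pairs with Itgb5 and Itgb3, was at 132 to 253 CPM (median 169) in the untreated and 305 to 387 CPM (median 328) in the vehicle libraries, a 1.85-fold rise (log2 fold change 0.89 ± 0.13, SE, edgeR Benjamini-Hochberg adjusted p = 3.21e-06). Itgb5 and Itga5 rose with log2 fold changes of 0.58 and 0.40.

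**Figure D4:**
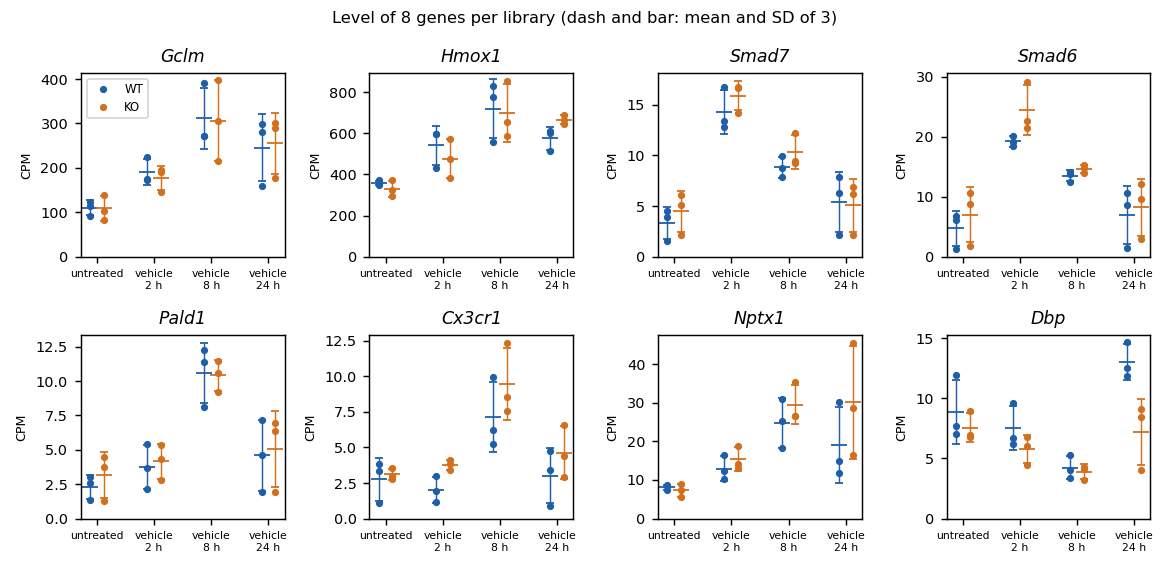
CPM of 8 genes in each library (blue WT, orange KO, 3 a time) in untreated cells and after 2, 8 and 24 h of vehicle, with dashes and bars at the mean and SD of 3. Gclm, Hmox1, Pald1 and Cx3cr1 have their highest median at 8 h, Smad7 and Smad6 theirs at 2 h, and Dbp has its lowest at 8 h.

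Many genes of DNA replication fell, and no gene of mitosis was called lower, where 9.66% of all genes fell and 8.49% rose. Of 45 S-phase genes 24 fell and none rose (median -0.27), and of 52 mitosis genes none fell and 1, Cdc20, rose, a call lost without both untreated libraries numbered 1 (log2 fold change of Cdc20 0.45 in place of 0.46, edgeR Benjamini-Hochberg adjusted p = 0.0524). The S-phase count was 14 without WT untreated replicate 3 and KO vehicle replicate 3. The mean level of the list was 4.62 to 5.01 on the log2 CPM scale in untreated and 4.45 to 4.73 in vehicle libraries, and the groups overlapped through WT untreated replicate 1. Mcm2, a subunit of the replicative helicase, was at 40.2 to 50.8 CPM (median 46.7) in the untreated and 29.9 to 41.0 CPM (median 33.2) in the vehicle libraries. Gins2, of the same helicase complex, was at 24.5 to 27.5 CPM (median 25.8) in the untreated and 19.9 to 23.4 CPM (median 21.7) in the vehicle libraries. Rfc2, of the clamp loader, was at 62.3 to 83.4 CPM (median 69.6) in the untreated and 55.5 to 64.2 CPM (median 57.9) in the vehicle libraries, a small fall (log2 fold change -0.27 ± 0.05, SE, edgeR Benjamini-Hochberg adjusted p = 4.74e-05). The groups overlapped in Mcm2 and Rfc2 and not in Gins2. Dut, which clears dUTP, and Ccne1, cyclin E, fell with log2 fold changes of -0.51 and -0.45. Of 20 genes of G1 control 9 fell and 3 rose. Ccnd2, a D-type cyclin, went from 16.9 to 28.8 CPM (median 21.2) to 9.71 to 16.4 CPM (median 10.3), and Cdk4, its kinase, fell by 0.27. Mxi1, an antagonist of Myc, rose from 31.6 to 37.2 CPM (median 34.5) to 50.8 to 61.2 CPM (median 55.5) with no overlap (log2 fold change 0.69 ± 0.06, SE, edgeR Benjamini-Hochberg adjusted p = 2.69e-10). Myc itself was at 16.8 to 25.3 CPM (median 20.8) in the untreated and 17.3 to 31.6 CPM (median 19.7) in the vehicle libraries and did not pass.

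The E2F motif, searched as TTTGGCGC, TTTCCCGC, TTTCGCGC and TTTGCCGC on both strands, was present in 15 of 36 matched S-phase genes (41.7%), beside 4.86% of all matched genes and 2.26% of all promoters of the table. Pola1, the catalytic subunit of DNA polymerase alpha, is shown as the called S-phase gene with the lowest p whose window holds it. It is outside the naming rule and was at 25.5 to 41.5 CPM (median 28.9) in the untreated and 19.6 to 24.8 CPM (median 22.4) in the vehicle libraries. The match is in capitals, begins 138 bases before the start and lies on the opposite strand.
Pola1, chrX:93632156-93632315, minus strand: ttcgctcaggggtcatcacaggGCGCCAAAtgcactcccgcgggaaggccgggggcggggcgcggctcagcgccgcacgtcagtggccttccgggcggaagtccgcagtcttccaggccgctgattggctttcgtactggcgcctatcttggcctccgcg

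Folding helpers of the endoplasmic reticulum fell as well, where 9.66% of all genes fell and 8.49% rose. Of 21 genes of the unfolded protein response 11 fell and none rose, with a median of -0.16. Calr, a chaperone for glycoproteins, was at 817 to 1067 CPM (median 949) in the untreated and 621 to 801 CPM (median 669.7) in the vehicle libraries, a 1.39-fold fall (log2 fold change -0.48 ± 0.06, SE, edgeR Benjamini-Hochberg adjusted p = 6.81e-07). Hspa5, the chaperone BiP, was at 867 to 1039 CPM (median 966) in the untreated and 722 to 784 CPM (median 773) in the vehicle libraries. The disulphide isomerases Pdia3, Pdia4 and Pdia6 fell with log2 fold changes of -0.34, -0.43 and -0.41. None of these 5 genes overlapped between groups. Of 31 tRNA synthetase and ATF4 target genes 8 fell and 1 rose, but the count of falls was 2 without KO untreated replicate 1, 3 to 5 without any one of WT untreated 2, KO untreated 2, KO vehicle 1 or 3 and WT vehicle 1, 2 or 3, and 1 without both untreated libraries numbered 1. None of 34 cytosolic ribosomal protein genes and none of 36 ribosome biogenesis genes passed in either direction, with medians of -0.0044 and -0.018.

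Some acute-response genes differed from untreated cells at 8 h. Of 23 immediate early genes 4 rose and 2 fell, where 18.2% of all genes were called (8.49% higher and 9.66% lower). Nr4a1, an orphan nuclear receptor, rose from 5.61 to 9.27 CPM (median 7.24) to 12.2 to 16.1 CPM (median 14.1), with no overlap. Fos rose from 77.0 to 103.4 CPM (median 99.4) to 102 to 164 CPM (median 129.6), with overlap, and Ier5 fell from 88.2 to 119 CPM (median 91.8) to 63.5 to 76.2 CPM (median 69.7). Egr1, at 21.97 to 41.3 CPM (median 28.7) in the untreated and 22.2 to 46.2 CPM (median 33.6) in the vehicle libraries, did not pass. Of 25 cytokine and NF-kB feedback genes 1 rose and 2 fell. Csf1, the gene of M-CSF itself, was at 50.7 to 83.7 CPM (median 63.3) in the untreated and 30.7 to 42.6 CPM (median 34.7) in the vehicle libraries, a 1.76-fold fall with no overlap (log2 fold change -0.81 ± 0.11, SE, edgeR Benjamini-Hochberg adjusted p = 7.92e-07). Traf1 fell by 0.64. Tnf was at 8.58 to 12.2 CPM (median 10.3) in the untreated and 7.88 to 10.3 CPM (median 8.98) in the vehicle libraries and Il1b at 1.83 to 5.45 CPM (median 2.998) in the untreated and 1.51 to 3.34 CPM (median 2.32) in the vehicle libraries, and neither passed.

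Among 17 clock genes 3 fell (17.6%) and 2 rose (11.8%), with small changes, where 9.66% of all genes fell and 8.49% rose. Dbp, a clock output factor, had the largest change of the clock and clock output genes. It was at 6.75 to 12.0 CPM (median 7.36) in the untreated and 3.17 to 5.30 CPM (median 4.08) in the vehicle libraries, a 2.03-fold fall with no overlap (log2 fold change -1.02 ± 0.18, SE, edgeR Benjamini-Hochberg adjusted p = 6.46e-05). Cry1 and Per3, repressors of the clock, fell with log2 fold changes of -0.42 and -0.62. The log2 fold change of Per2 was -0.78 ± 0.25, and its call was lost in 5 of the 12 fits that left out a library (WT untreated 1 or 2, KO untreated 3, WT vehicle 1 or KO vehicle 3, with changes of -0.59 to -0.77 and edgeR Benjamini-Hochberg adjusted p 0.0519 to 0.0965). The log2 fold change of Arntl was 0.29, and its call was kept in 4 of these 12 fits (without KO untreated 1 or 2, WT vehicle 1 or KO vehicle 2), with 0.24 to 0.29 and edgeR Benjamini-Hochberg adjusted p 0.0524 to 0.0931 in the others. Per1 and Nr1d1 differed by -0.17 and 0.28 and did not pass. Of 20 glucocorticoid receptor targets 2 rose (10%) and 1 fell (5%). The calls of Sgk1 (0.50) and Amica1 (-1.80) were kept in 4 and 7 of the 12 fits that left out a library. Tgm2, transglutaminase, rose from 121 to 193 CPM (median 162) to 235 to 323 CPM (median 263), while Fkbp5 and Tsc22d3 differed by 0.22 and -0.07 and did not pass.

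In energy and lipid metabolism the groups differed in how many genes were called at 8 h, beside 8.49% of all genes called higher and 9.66% lower. Of 17 HIF targets 6 rose (35.3%) and none fell, among them Ankrd37 (0.88) and Bnip3l (0.20). Of 20 glycolysis genes 7 rose and 2 fell, a count of rises that was 4 without WT untreated replicate 1, WT vehicle replicate 3 or KO vehicle replicate 3. Pfkl, liver-type phosphofructokinase, was at 34.4 to 43.9 CPM (median 37.4) in the untreated and 47.4 to 55.3 CPM (median 51.2) in the vehicle libraries, a 1.36-fold rise (log2 fold change 0.45 ± 0.06, SE, edgeR Benjamini-Hochberg adjusted p = 1.89e-06), and Aldoa rose by 0.18. Of 24 cholesterol synthesis and SREBP2 target genes 2 rose and 1 fell, with a median of 0.12. Of 12 LXR targets 1 fell, Abcg1, a cholesterol exporter, which went from 71.8 to 120.0 CPM (median 90.9) to 57.6 to 72.4 CPM (median 61.8). Abca1 differed by -0.29 and did not pass. Among lipid storage and oxidation genes, 5 of 24 rose and 2 fell, and Angptl4, an inhibitor of lipoprotein lipase, rose from 3.78 to 7.58 CPM (median 4.67) to 7.80 to 9.94 CPM (median 8.40).

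The change was called in each genotype, and no difference between genotypes was called. Taken alone, 774 genes were called in WT (301 higher and 473 lower, 6.94%, 2.7% and 4.24%) and 804 in KO (285 higher and 519 lower, 7.2%, 2.55% and 4.65%). In KO, same-numbered libraries of both conditions correlated at 0.255 to 0.422, although the labels do not say what a number marks. With the number as a block over all 42 libraries of the fit, the KO count was 1216. With no block it was 428 without KO untreated replicate 1 and 516 without KO vehicle replicate 3. In WT it was 437 without WT vehicle replicate 3. No gene was called for a difference of the change between KO and WT by edgeR (0 of 11160) or DESeq2 (0), with 133 genes at an unadjusted p under 0.05. The median SE of that difference was 0.17 on the log2 scale. Of the 2026 called genes 0 had opposite signs in WT and KO, but a call on the average of the genotypes favours like signs. That count is therefore no separate sign that the genotypes agree. In each genotype 43 of the 44 antiviral genes fell, with medians of -1.65 in WT and -1.54 in KO. The KO vehicle libraries spread more, with a mean log2 CPM of the antiviral interferon-stimulated genes of 5.12, 5.73 and 6.19 against 5.37, 5.43 and 5.53 in WT. Of the 45 S-phase genes 2 fell in WT and 17 in KO, with medians of -0.25 and -0.31, and none was called for a difference between genotypes.

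**Figure D5:**
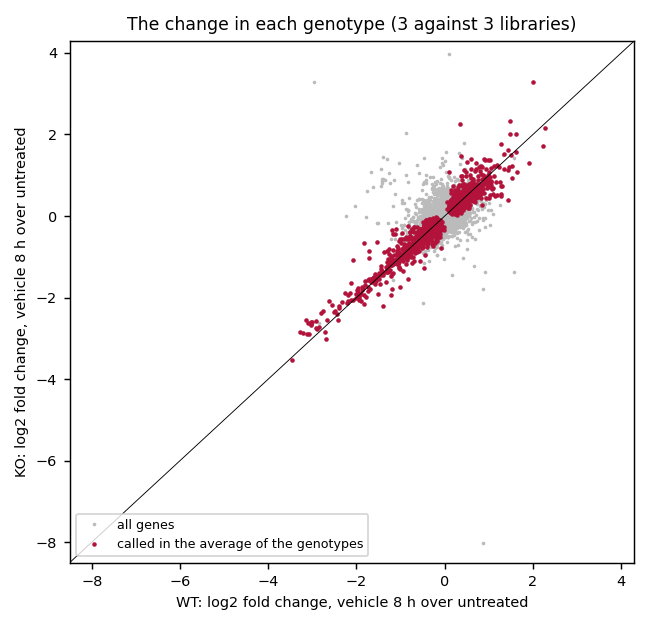
Log2 fold change after 8 h of vehicle in KO (vertical) against WT (horizontal), 3 against 3 libraries in each, for all 11160 genes (grey) and the 2026 called in the average of the genotypes (red), with the line of equal change. The called genes lie along the line, and none has opposite signs, which their selection on the average of both genotypes favours.

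The 2 h and 24 h vehicle libraries place the 8 h change in time. The comparisons with untreated cells share the 6 untreated libraries, so their values are given side by side and the difference between times was tested between vehicle libraries. Against untreated cells 785 genes rose and 750 fell at 2 h (7.03% and 6.72%, 13.8% together) and 1745 rose and 1719 fell at 24 h (15.6% and 15.4%, 31% together). From 2 h to 8 h 1234 genes rose and 1407 fell (11.1% and 12.6%, 23.7% together), and from 8 h to 24 h 1013 rose and 896 fell (9.08% and 8.03%, 17.1% together).

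The interferon-stimulated genes were partway at 2 h. Of the 44 antiviral genes 32 were lower than untreated at 2 h (median -0.51), 44 at 8 h (-1.60) and 44 at 24 h (-2.40). Between vehicle libraries 43 fell from 2 h to 8 h (12.6% of all genes fell) and 24 fell from 8 h to 24 h (8.03%). Ifit3 had a median of 215 CPM at 2 h, 46.0 CPM at 8 h and 24.3 CPM at 24 h. The 16 GTPases all fell from 2 h to 8 h, while from 8 h to 24 h 4 fell and 1 rose. Of the class I genes 4, 16 and 19 of 20 were lower at 2, 8 and 24 h, and of the class II genes 0, 8 and 8 of 11. Over all genes 6.72%, 9.66% and 15.4% were lower at these times. The 3 genes that fell most from 8 h to 24 h under the naming rule were Irf7, Ly6a and Ms4a4c. Irf7 went from 295 to 509 CPM (median 338) to 33.0 to 80.04 CPM (median 46.2) (log2 fold change -2.84 ± 0.16, SE, edgeR Benjamini-Hochberg adjusted p = 3.24e-14). Ms4a4c went to 7.54 to 18.6 CPM (median 10.6). Ms4a4a moved the other way, with a log2 fold change of 1.56 ± 0.15 (SE) from 8 h to 24 h, averaged over genotypes. Its level at 24 h was 53.5 to 213 CPM (median 145) over WT and KO libraries together. This range mixes the genotypes, and KO was below WT in the untreated and 8 h libraries.

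Several groups changed mostly between 2 h and 8 h. Of the 45 S-phase genes 35 fell from 2 h to 8 h, beside 12.6% of all genes. At 2 h 3 of them were higher than untreated, near the share of all genes (7.03%). Of the unfolded protein response genes 12 of 21 fell from 2 h to 8 h. At 2 h 2 of these were higher, also near the share of all genes. Cx3cr1 and Pald1 were among the 3 genes with the largest rise from 2 h to 8 h under the naming rule, with log2 fold changes of 1.56 ± 0.32 and 1.40 ± 0.29 (SE), and both fell from 8 h to 24 h, with log2 fold changes of -1.15 and -1.13. Hpgd, which inactivates prostaglandins, was the third and rose further to 24 h, from 3.32 to 6.20 CPM (median 5.10) in untreated to 8.09 to 10.5 CPM (median 9.92) at 8 h and 11.3 to 19.3 CPM (median 14.6) at 24 h. Ctnnd2, delta-catenin, was at 9.31 to 13.7 CPM (median 11.9) at 2 h and 1.28 to 3.02 CPM (median 2.25) at 8 h (log2 fold change -2.41 ± 0.19, SE, edgeR Benjamini-Hochberg adjusted p = 5.23e-11). Ccl12 was among the 3 largest falls under that rule too and dropped by 2.58 between these times.

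In other groups a response was present at 2 h and smaller at 8 h. Over all genes 7.03% were higher than untreated at 2 h and 12.6% fell from 2 h to 8 h. Of the 23 immediate early genes 10 were higher than untreated at 2 h and 13 fell from 2 h to 8 h. Fosb, a partner in AP-1, was at 0.295 to 0.583 CPM (median 0.404) in untreated, 6.98 to 8.96 CPM (median 7.68) at 2 h and 0.488 to 1.39 CPM (median 0.777) at 8 h, where its difference from untreated did not pass (log2 fold change of Fosb 0.89, edgeR Benjamini-Hochberg adjusted p = 0.0548). It did pass without WT vehicle 2 (0.99, adjusted p = 0.0399) or KO untreated 3 (0.98, adjusted p = 0.045), and with the replicate block, the 12 libraries alone or DESeq2 (0.89 to 0.90, adjusted p 0.0244 to 0.0417). Of the cytokine genes 9 of 25 were higher at 2 h and 8 fell from 2 h to 8 h. Tnf, for example, was at 13.2 to 19.4 CPM (median 16.5) at 2 h. Of the clock genes 10 of 17 were higher at 2 h and 8 fell from 2 h to 8 h. Per2 was at 2.06 to 4.51 CPM (median 3.17) at 2 h and fell by 1.82 to 8 h. Dbp, outside these 17 genes, did not follow this pattern and had its lowest median at 8 h. It was at 4.07 to 14.7 CPM (median 10.5) at 24 h, with a rise of 1.25 from 8 h. Smad7 had its highest median, 15.4 CPM, at 2 h and fell from there, with log2 fold changes of -0.66 to 8 h and -0.87 from 8 h to 24 h.

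A last set moved after 8 h. Of the cholesterol genes 19 of 24 fell from 8 h to 24 h, and 21 were then below untreated, beside 15.4% of all genes. Of the 52 mitosis genes 31 fell from 8 h to 24 h. Over all genes 8.03% fell and 9.08% rose from 8 h to 24 h. Of 12 LXR targets 8 rose from 8 h to 24 h, and Abca1 went from 135 to 196 CPM (median 172) to 277 to 408 CPM (median 338) (log2 fold change 1.02 ± 0.14, SE, edgeR Benjamini-Hochberg adjusted p = 2.03e-06). The 3 genes that rose most in that interval under the naming rule (at least 5 CPM in a group and no overlap) were Dnah2, Stab2 and Sult1a1, of which none had passed at 8 h. The log2 fold change of Stab2 at 8 h (-0.66, edgeR Benjamini-Hochberg adjusted p = 0.0603) did pass without WT vehicle 1 (-0.75, adjusted p = 0.048) or KO untreated 3 (-0.77, adjusted p = 0.0253), and with the replicate block, the 12 libraries alone or DESeq2 (-0.66 to -0.64, adjusted p 0.00442 to 0.0349). Stab2, a scavenger receptor for hyaluronan, went from 1.85 to 3.53 CPM (median 2.33) to 5.73 to 17.6 CPM (median 8.39). The NRF2 targets were steadier, with 9, 15 and 13 of 24 above untreated at 2, 8 and 24 h, beside 7.03%, 8.49% and 15.6% of all genes. Of these targets 8 rose from 2 h to 8 h, beside 11.1% of all genes, and 4 rose and 3 fell from 8 h to 24 h. Gclm rose by 0.75 from 2 h to 8 h, and its difference between 8 h and 24 h did not pass (log2 fold change -0.30 ± 0.17, SE).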

How the data were processed

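RNA was sequenced from 42 libraries in 14 groups of 3, of which 12 are compared. Per the labels' protocols, a SMART-Seq mRNA kit was used, and the submitters' processing notes name fastp, HISAT2, Salmon and GRCm38 with no version or role. The authors deposited one table of expected counts for 11160 genes, by symbol. Such estimates share reads between similar transcripts, so close copies depend on that split. The lowest total of a gene is 256, so genes of low level are missing, and strand use in counting is unknown.

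Counts were rounded and fitted with edgeR 4.0.16 (R 4.3.3) in one quasi-likelihood model holding a mean for each of the 14 groups, scaled by TMM over the 42 libraries. The expression filter removed 0 genes. The change was the mean of the WT and KO differences, adjusted over all genes by the Benjamini-Hochberg method at 0.05, and an SE is the log2 fold change divided by the root of F. List levels are means of log2 CPM with a prior count of 2.

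Named genes were up to 12 of the largest changes each way (at least 5 CPM in a group, no overlap, unnamed loci left out), up to 5 called members of each of 56 lists with the lowest p, 20 fixed genes and the 3 largest changes each way between times. Some genes that this rule picks are not reported here. Genes outside this rule are marked in the text. The comparison, the lists and this rule were chosen with earlier results of these data known. Gene positions are GENCODE release 21 (10745 of 11160 symbols matched), and promoters are RefSeq, GRCm38.p6. Replicate libraries differed beyond counting noise (chi-square per degree of freedom 7.07 to 56.9). Same-numbered libraries correlated at 0.255 to 0.422 in KO and 0.084 to 0.238 in WT between 8 h and untreated, at 0.125 to 0.436 between 8 h and 2 h, and at 0.013 to 0.403 between 24 h and 8 h. Every same-numbered pair passed a threshold of 0.1 in KO between 8 h and untreated, and in both genotypes between 8 h and 2 h. However, WT vehicle 2 h replicate 2 correlated more with an 8 h library of another number (0.235 against 0.142). The numbers thus do not pair every WT library between 8 h and 2 h. Alternatives were DESeq2 1.42.0, median-ratio scaling, a minimum mean of 5 CPM, no filter, the 12 libraries alone, the replicate number as a block and leaving out each library, and after seeing the data 2 pairs of libraries.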

Additional observations from a re-analysis of the deposited data

Results flagged for a closer look

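Among 54 sets of 6 libraries tested for a library far from the rest of its group, 3 had one, and chance gives about 1 in 20. The mean level of the glycolysis genes was 7.0396 on the log2 CPM scale in WT vehicle 8 h replicate 2 and 7.1126 to 7.1528 in the other 5 vehicle libraries. The share of counts in the 10 most abundant genes was 19.5% in KO untreated replicate 1 and 18.0 to 18.5% in the other untreated libraries. The total was 10140211 counts in WT untreated replicate 3 and 24151259 to 29064970 in the other untreated libraries. Whether these differences bear on the change at 8 h was not tested, and the counts of calls without the last 2 libraries are among those given for the processing.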

How the results depend on the processing

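The 8 h comparison called 1854 to 2203 genes under median-ratio scaling, no filter, a minimum mean of 5 CPM and DESeq2, 1550 with the 12 libraries alone, 1472 to 2451 with 1 library left out, 1427 without WT untreated 3 and KO vehicle 3, and 1335 without both untreated libraries numbered 1. The last 2 were chosen after seeing the data. With the replicate block the average called 2654 genes, WT 1223 and KO 1216, and the 8 h against 2 h comparison 3243 in place of 2641. In WT the numbers are shared without pairing every library. The block changed the call of 2 of 225 named genes. Leaving out 1 library gave 437 to 664 calls in WT and 428 to 940 in KO. The 2 h comparison with untreated cells had 1007 calls in place of 1535 with its libraries alone. Genes over 2-fold higher numbered 15 with a minimum mean of 5 CPM and 24 without both untreated libraries numbered 1, in place of 37. The minimum mean left 5 chemokine and 2 alternative activation genes lower. The block gave 8 lipid storage genes higher in place of 5. Without both untreated libraries numbered 1, 4 glycolysis, 3 FoxO target and 2 lysosome genes were higher, and 1 ATF4 target and 3 alternative activation genes lower. Without WT untreated 3 and KO vehicle 3, 14 S-phase, 3 ATF4 target and 3 alternative activation genes were lower and 2 lysosome genes higher. The 12 libraries alone gave 2 lysosome genes higher. With 1 library left out, glycolysis had 4 to 8 and lysosome 2 to 4 higher, and ATF4 targets 2 to 7 and alternative activation 3 to 5 lower. Uncalled values that changed sign were the log2 fold change of Myc (0.08, with -0.0818 to 0.1778 when 1 library was left out) and the log2 fold change of Spi1 (-0.02, with -0.0406 to 0.0041). Of the values of called named genes under all alternatives, 3821 kept their call, 299 lost it and 0 changed sign. The cause of these changes was not tested. With 3 libraries a genotype, the median SE of a difference between genotypes was 0.17 on the log2 scale, and missing low genes limit the lists.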

Other observations

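Genes of several smaller groups were called too, beside 18.2% of all genes (8.49% higher and 9.66% lower). Of 20 prostaglandin and leukotriene genes 4 rose and 2 fell (median 0.12). Hpgd, which inactivates prostaglandins, was at 3.32 to 6.20 CPM (median 5.10) in the untreated and 8.09 to 10.5 CPM (median 9.92) in the vehicle libraries, with no overlap (log2 fold change 1.05 ± 0.15, SE, edgeR Benjamini-Hochberg adjusted p = 1.6e-06). Ptger2, a receptor for prostaglandin E2, rose from 8.61 to 10.7 CPM (median 9.81) to 12.9 to 18.2 CPM (median 16.6), and Tbxas1, thromboxane synthase, from 98.9 to 121 CPM (median 112) to 126 to 149 CPM (median 142). Ptafr, the receptor of platelet-activating factor, fell from 88.7 to 127 CPM (median 110.1) to 66.4 to 88.0 CPM (median 83.3). None of these 4 genes overlapped between groups. Of 28 solute carriers 5 rose and 2 fell. The amino acid carrier Slc43a2 rose from 362 to 516 CPM (median 409.6) to 541 to 735 CPM (median 593), and the sugar carrier Slc2a6 fell from 21.6 to 34.9 CPM (median 25.2) to 15.2 to 19.5 CPM (median 16.9).

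Among 30 chromatin genes 4 rose and 2 fell, beside 8.49% and 9.66% of all genes. Dnmt3a, a DNA methyltransferase, had the lowest p. It was at 338 to 417 CPM (median 387) in the untreated and 243 to 286 CPM (median 264) in the vehicle libraries, without overlap (log2 fold change -0.54 ± 0.07, SE, edgeR Benjamini-Hochberg adjusted p = 9.25e-07). Of 19 heat shock genes 5 rose and 1 fell, and the one that fell, Ahsa1, an activator of HSP90, went from 267 to 406 CPM (median 302) to 179.9 to 239 CPM (median 209). Of 9 osteoclast and cell fusion genes 2 rose and 1 fell, and Acp5, an acid phosphatase, fell from 20.0 to 26.4 CPM (median 24.9) to 12.9 to 18.3 CPM (median 15.2). Of 18 matrix protease genes 3 rose and 1 fell. Adam8 rose from 1237 to 1459 CPM (median 1321) to 1481 to 2016 CPM (median 1699), while the collagenase Mmp13 fell from 47.0 to 77.4 CPM (median 59.9) to 34.3 to 58.6 CPM (median 37.6), with overlap. Of 35 lysosome genes 5 rose and 2 fell, with 4 rises without WT vehicle 2 or KO untreated 3, 2 or 3 without any other one of the 12 libraries, and 2 with the 12 libraries alone. Ctsz, a cathepsin, fell from 1518 to 1991 CPM (median 1613) to 1240 to 1347 CPM (median 1296), and Tfe3, a factor that turns on lysosome genes, rose from 104 to 122 CPM (median 114) to 134 to 152 CPM (median 137). Of 35 oxidative phosphorylation genes 4 fell and none rose (median -0.13), and of 31 proteasome genes 2 fell and 1 rose.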
